A study of Mus musculus with 6 samples.

Results

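Cytoplasmic ribosomal protein genes encode the proteins of the small (40S) and large (60S) subunits of the ribosome. They were chosen here as protein-coding mouse autosomal genes whose symbols begin with Rpl, Rps or Rplp followed by a number, optionally ending in a, x or l. The rule gave 76 genes of 20665 protein-coding autosomal genes. Of these, 28 belong to the 40S subunit, 40 to the 60S subunit and 3 to the P stalk of the large subunit, and 5 are variant copies. A peak was counted for a gene where its summit lay within 1 kb of either end of the gene in mm10, which is called a gene-end peak below. The choice used symbols and positions and no measured value.

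The peaks come from ATAC-seq, in which Tn5 transposase cuts open chromatin and adds sequencing adapters, in mouse epiblast stem cells, the pluripotent cells of the post-implantation embryo. The cells of all 6 libraries were maintained on irradiated mouse embryonic fibroblast feeders with bFGF and Activin A, aggregated into embryoid bodies and differentiated in serum for 2 days. Mixl1 knockout cells gave 3 libraries, and Mixl1-inducible cells that had received 1 µg/mL doxycycline 24 h before collection gave another 3, with 50000 cells for each library. The labels give doxycycline for the inducible lines only, and they do not say how many clones or separate cultures the libraries represent. Mixl1, a homeobox factor of the primitive streak, doxycycline and the cell line cannot be told apart here. A single peak list stands for each group. The list named KO is the knockout. No label explains the name FM of the other list, which is taken as the induced group only because no other group remains. The lists are called KO and FM below. With 1 list for each group there is no spread between replicates, so no test was made and all values are descriptions of these lists.

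Every dividing cell makes ribosomes in large numbers, and the genes for their proteins are among the most strongly and evenly transcribed of the genome. Their promoters usually lack a TATA box, and transcription begins at a C inside a run of pyrimidines. That run, the terminal oligopyrimidine tract, stands at the very start of the messenger RNA and places its translation under control of the growth kinase mTOR. Because every dividing cell makes these proteins, the genes were taken here as a constitutive reference for promoter accessibility.

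Promoter sequences of RefSeq (GRCm38.p6, the assembly that mm10 names) were found for 56 of the 76 genes. The 8 below run from 130 bases before the annotated start to 20 bases from it, 5′ to 3′ on the strand of the gene. Rpl15, Rpl34, Rpl37 and Rps13 are shown because their peaks had the highest fold values in the FM list among genes of the table. Rpl24 and Rps15a changed rank most between the lists, up and down respectively in the KO list. Rps2 has its start inside the annotated gene interval, and Rplp2 stands for the P stalk. Capitals mark matches to CCGGAAG (bound by ETS factors), AAGATGGC (YY1) and GGGCGG (SP1) on either strand, and a run of 8 or more C or T letters that lies within 5 bases of the start. The Rpl15 window is chr14:18270967-18271116 (minus strand), that of Rpl34 chr3:130730379-130730528 (minus strand), that of Rpl37 chr15:5116483-5116632 (plus strand) and that of Rps13 chr7:116334171-116334320 (minus strand). The Rpl24 window is chr16:55966145-55966294 (plus strand), that of Rps15a chr7:118116128-118116277 (minus strand), that of Rps2 chr17:24719933-24720082 (plus strand) and that of Rplp2 chr7:141447521-141447670 (plus strand).
Rpl15: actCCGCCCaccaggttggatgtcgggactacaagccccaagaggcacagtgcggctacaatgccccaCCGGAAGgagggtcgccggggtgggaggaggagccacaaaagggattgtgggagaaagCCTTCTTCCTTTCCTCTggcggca
Rpl34: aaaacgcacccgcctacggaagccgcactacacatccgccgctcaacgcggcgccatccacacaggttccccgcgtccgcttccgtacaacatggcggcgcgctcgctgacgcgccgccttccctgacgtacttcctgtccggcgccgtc
Rpl37: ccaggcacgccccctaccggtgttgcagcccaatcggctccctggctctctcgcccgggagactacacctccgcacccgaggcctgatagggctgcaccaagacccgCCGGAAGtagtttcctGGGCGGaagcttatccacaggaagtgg
Rps13: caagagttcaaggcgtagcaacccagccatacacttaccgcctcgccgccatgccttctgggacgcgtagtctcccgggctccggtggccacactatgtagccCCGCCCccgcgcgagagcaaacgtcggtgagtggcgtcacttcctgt
Rpl24: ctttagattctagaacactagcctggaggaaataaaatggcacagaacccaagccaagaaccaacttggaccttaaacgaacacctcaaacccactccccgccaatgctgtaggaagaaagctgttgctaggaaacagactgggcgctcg
Rps15a: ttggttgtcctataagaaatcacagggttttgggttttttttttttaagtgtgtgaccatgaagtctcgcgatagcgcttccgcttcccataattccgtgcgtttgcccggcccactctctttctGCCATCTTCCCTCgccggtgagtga
Rps2: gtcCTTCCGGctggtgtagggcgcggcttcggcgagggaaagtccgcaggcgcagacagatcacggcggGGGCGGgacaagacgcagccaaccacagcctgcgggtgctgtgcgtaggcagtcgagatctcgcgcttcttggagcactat
Rplp2: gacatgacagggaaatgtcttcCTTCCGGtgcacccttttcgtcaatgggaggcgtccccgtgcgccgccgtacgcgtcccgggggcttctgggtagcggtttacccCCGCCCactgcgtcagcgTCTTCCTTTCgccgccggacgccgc

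The Rpl15 window ends in a pyrimidine run of 17 letters across its start and holds 1 ETS and 1 SP1 match. Rplp2 holds a run of 10 letters with both kinds of match, and Rps15a a run of 9 letters that overlaps a YY1 match. The Rps2 window has an ETS and an SP1 match far from its start. The windows of Rpl34 and Rpl24 contain none of the marked letters. The Rpl37 window carries an ETS and an SP1 match close to its start and the Rps13 window an SP1 match, and neither has a run of 8.

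Over the 56 promoters with a sequence, taken from 250 bases before to 50 after the first listed start, 37.5% had a pyrimidine run of 8 or more at the start, against 9.72% of 16457 promoters in the same table. This run was counted after the data were seen. The letters CTTTCC or CTTTTC on the given strand were present in 51.8% against 22.5%, which includes 35.7% against 13.9% for CTTTCC and 19.6% against 10.7% for CTTTTC. These letters can lie inside the run. CCGGAAG was found on either strand in 39.3% of the ribosomal protein gene promoters and 12.3% of all promoters. A palindromic element with a CGCG core, known from constitutive promoters, was found in 8.93% against 0.711%, and TGACGTCA, the cyclic AMP response element and also its own reverse complement, in 8.93% against 2.42%. AAGATGGC was found in 7.14% against 3.23%, GGGCGG in 55.4% against 47.3% and the NRF1 letters GCGCATGC in 3.57% against 3.66%. TATAAA was found in 7.14% against 13.5%. The median GC content was 56.8% in these promoters and 56.7% in all. A match describes letters in a window and is not evidence of a bound factor.

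The FM list held 205974 peaks with 279817 summits and the KO list 139351 peaks with 191107 summits. The deposited fold is the peak caller's own ratio of the summit to its local background, and the lowest −log10 q was 1.3 in both lists, which is a q-value of 0.05. The depth in reads is unknown. Mixl1 itself had a gene-end peak of fold 4.26 in FM and 2.97 in KO, which does not check the labels because the sources used here do not give the deleted part. Of 7 epiblast markers, 5 had a gene-end peak in FM and 6 in KO, with none for Otx2 in either list and for Nanog in the FM list. All 4 primitive streak markers had one in both lists. So did 4 of 6 fibroblast markers, with folds of 2.30 to 5.08 in FM and 2.71 to 4.02 in KO and none for Col3a1 or Postn, and the share of feeder chromatin was not tested. Of 4 genes of lineages that should be absent, 3 had a weak gene-end peak in the FM list, at folds of 1.69 to 1.82, and 0 in the KO list. Over all protein-coding autosomal genes 75.5% had a gene-end peak in FM and 72.5% in KO, so these counts do not identify cell types.

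Nearly every ribosomal protein gene was accessible at a gene end in both lists. In the FM list 73 of 76 genes (96.1%) had a gene-end peak, against 75.5% of all protein-coding autosomal genes. In the KO list 71 (93.4%) had one, against 72.5%, and these 71 also had one in the FM list, against 70.6% of all genes with a peak in both. At annotated starts, 54 of the 56 genes with a start had a peak within 1 kb in each list (96.4%), against 75% and 72.2% of genes with a start. The share of ribosomal protein genes with a peak was thus above that of all genes in each list.

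The median fold of the strongest gene-end peak was 3.59 in the FM list (range 1.57 to 7.35), beside 3.49 over all genes with a peak. It was 4.79 in the KO list (range 2.08 to 8.51), beside 4.22. A fold of 5 or more was reached by 11 of the 76 genes (14.5%) in the FM list, against 15.4% of all genes, and by 31 (40.8%) in the KO list, against 27.3%. Among genes with a peak the family counts were 11 of 73 and 31 of 71, and the shares over all genes were 20.4% and 37.7%. The FM share of the family lay at or below the background and the KO share above it, and all 11 genes past 5 in the FM list were also past 5 in the KO list. The highest gene-end folds over all genes were 33.5 and 35.7, well above the highest fold of the family. Just short of the mark was Rpl9, at 4.98 in the FM list.

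**Figure D1:**
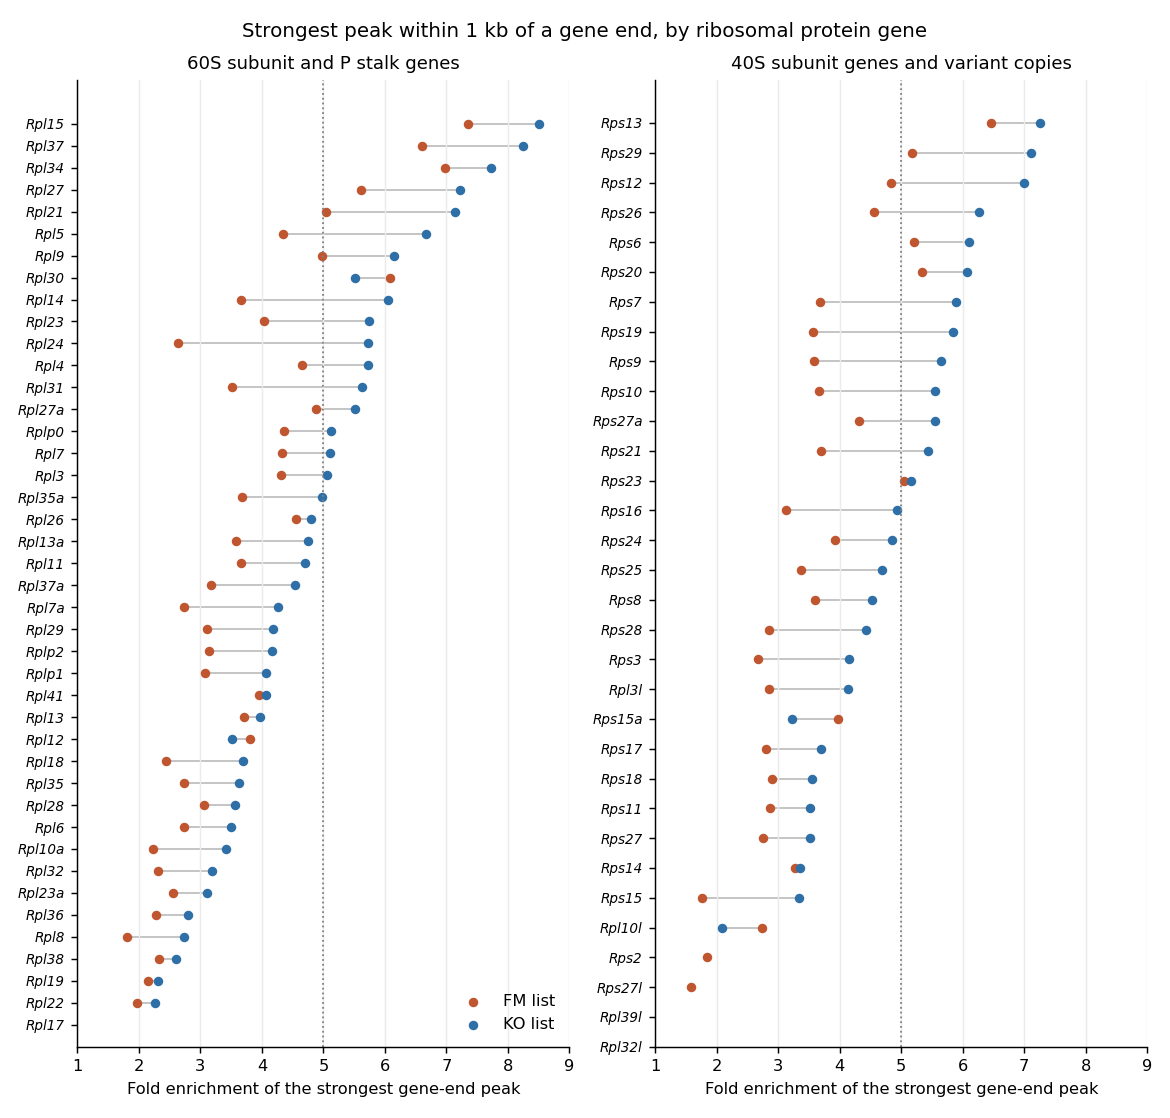
Fold enrichment (x axis, ratio of summit to local background) of the strongest gene-end peak of the genes named on the y axis in the FM list (orange) and the KO list (blue), with 60S and P stalk genes on the left and 40S genes and variant copies on the right; a missing point is a gene without a peak and the dotted line marks a fold of 5. Values run from 1.57 to 7.35 in FM and from 2.08 to 8.51 in KO, and the blue point lies to the right for all but 4 of the genes with both points.

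Among the 60S genes, 39 of 40 had a gene-end peak in each list, with a median fold of 3.66 in FM and 4.75 in KO. Rpl15, a large-subunit protein whose gene is mutated in some cases of Diamond-Blackfan anaemia, had the highest fold of the family in both lists. Its values were 7.35 in the FM list (422 fragments piled up at the summit over a local background of 56.5) and 8.51 in the KO list (496 over 57.4). This placed it at percentile 98.1 and 97.4 among the 14582 genes with a gene-end peak in both lists, where 100 is the highest fold. Rpl34 had folds of 6.98 and 7.73, and Rpl37, a small zinc-binding protein, 6.60 and 8.24. Rpl30, a small protein of the same subunit, stood at 6.09 in FM and 5.51 in KO. The leading 60S genes were therefore mostly the same in both lists, with Rpl30 alone of these 4 numerically lower in the KO list.

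Among the 60S genes of lowest fold were Rpl8, Rpl22, Rpl19 and Rpl38. Rpl8, which lies next to the peptidyl transferase centre, had folds of 1.80 in FM and 2.73 in KO, with 138 and 266 fragments at the summit. Rpl22, which is dispensable in most cells but needed for αβ T cell development, had 1.96 and 2.27. Rpl19 had 2.15 and 2.31, and Rpl38, which is needed for translation of Hox transcripts in the mouse embryo, had 2.32 and 2.60. All 4 stayed below the median of the family in both lists.

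Rpl5 and Rpl11, which bind the ubiquitin ligase Mdm2 when ribosome assembly is disturbed, differed in level. Rpl5 had folds of 4.34 in FM and 6.66 in KO, and Rpl11 had 3.66 and 4.70. Rpl13a, which can leave the ribosome to repress inflammatory transcripts, had 3.57 and 4.75. Rpl3, which reaches the peptidyl transferase centre, had 4.30 and 5.05. Rpl5 and Rpl3 lay above the median of the family in both lists, and Rpl11 and Rpl13a close to it.

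All 28 genes of the 40S subunit had a gene-end peak in FM and 27 in KO, with median folds of 3.62 and 5.17. Their median percentile was 50.7 in FM and 64.0 in KO, while for the 60S genes it was 50.8 and 56.9. Rps13 led the 40S genes in the FM list at 6.47 and had 7.26 in the KO list. The lowest value of the subunit was that of Rps15, a protein of the head of the small subunit, at 1.76 in the FM list; in the KO list it had 3.34.

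Rps6, the substrate of the S6 kinases below mTOR, had folds of 5.21 in FM and 6.11 in KO. Rps27a, which is made as a fusion with ubiquitin, had 4.32 and 5.55. Rps19, the gene most often mutated in Diamond-Blackfan anaemia, had 3.56 and 5.85. Rps14, which is lost in a deletion form of myelodysplasia in humans, had 3.27 and 3.36. Of these, Rps14 was nearly level between the lists and Rps19 was furthest apart.

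The P stalk recruits elongation factors to the ribosome. Rplp0, its scaffold and a common reference gene for expression, had folds of 4.37 in FM and 5.12 in KO, with 267 and 305 fragments at the summit. Rplp1 had 3.07 and 4.07, and Rplp2 had 3.15 and 4.17. The order Rplp0, Rplp2, Rplp1 was the same in both lists, and Rplp1 and Rplp2 were close to each other in each.

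The 5 variant copies had few or weak gene-end peaks. Rpl39l, a testis copy of Rpl39, and Rpl32l had no gene-end peak in either list. Rpl10l, a testis retrogene of Rpl10, had a small gene-end peak of fold 2.74 in the FM list (80 fragments) and 2.08 in the KO list (61 fragments), over the lowest local backgrounds of the family, 28.6 and 28.8. Rpl3l, the striated muscle form of Rpl3, had folds of 2.85 and 4.14, but that peak lay at the end away from its start and within 1 kb of an end of Msrb1; within 1 kb of its own start the folds were 2.15 and 1.76. Rps27l, a target of p53, had only a weak gene-end peak in the FM list at 1.57 and none in the KO list, and a strong peak further inside the gene, described next. No variant copy reached a fold of 5 at a gene end.

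Several of the low or missing values belonged to genes with an annotated start inside the RefSeq gene interval, more than 1 kb from its end. For Rps2, a protein at the messenger RNA entry channel, the start in the promoter table is 1.94 kb inside. The gene-end peak had fold 1.84 in the FM list and was missing from the KO list, whereas the summit within 1 kb of that start had folds of 3.23 and 4.80, with 290 and 536 fragments. Rps27l has starts 1.46 and 1.79 kb inside, with folds of 4.33 and 6.38 near them. Rpl22 has a second start 1.29 kb inside, where the folds were 3.93 and 5.54 against 1.96 and 2.27 at the gene ends. Rpl19 has starts 4.71 and 4.92 kb inside, with folds of 2.76 and 3.81. In both lists each of these 4 genes was higher near the inner start than at the gene ends.

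Rpl17 had no gene-end peak in either list and no start in the table, and its strongest nearby summits lay 1.89 kb (FM list, fold 4.73) and 1.85 kb (KO list, fold 3.65) inside the gene from its lower end. The 1 kb limit therefore bears on single genes. Just inside it, the strongest KO summit of Rpl22 was 0.984 kb from the lower end with fold 2.27, and just outside it the next KO summit of the same peak was at 1.388 kb with fold 5.54. Moving the window the other way, Rpl18 had folds of 2.44 and 3.69 at its lower end but 1.85 and 2.52 at its start, 2.60 kb inside.

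Where a strand was known, the strongest gene-end peak lay at the start end for 49 of 54 genes (90.7%) in FM and 49 of 52 (94.2%) in KO, against 88.6% and 90.2% of all genes with a strand. The exceptions in both lists were Rpl3l, Rpl4 and Rpl41, whose strongest summits were within 1 kb of an end of Msrb1, Snapc5 and Zc3h10, respectively, and Rpl22 and Rps18 were further ones in the FM list alone. Rpl4 had folds of 4.66 and 5.73 at the far end and 4.06 and 4.47 near its start. An end of another protein-coding gene lay within 1 kb of the strongest summit for 18 of 73 genes (24.7%) in FM and 17 of 71 (23.9%) in KO, against 21% and 21.6% of all genes with a peak, among them Rpl15 with Nkiras1 and Rpl37 with Card6. The median fold was 3.26 with such a neighbour and 3.66 without in the FM list, and 4.27 and 4.96 in the KO list. The peak of such a pair cannot be divided between the genes.

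**Figure D2:**
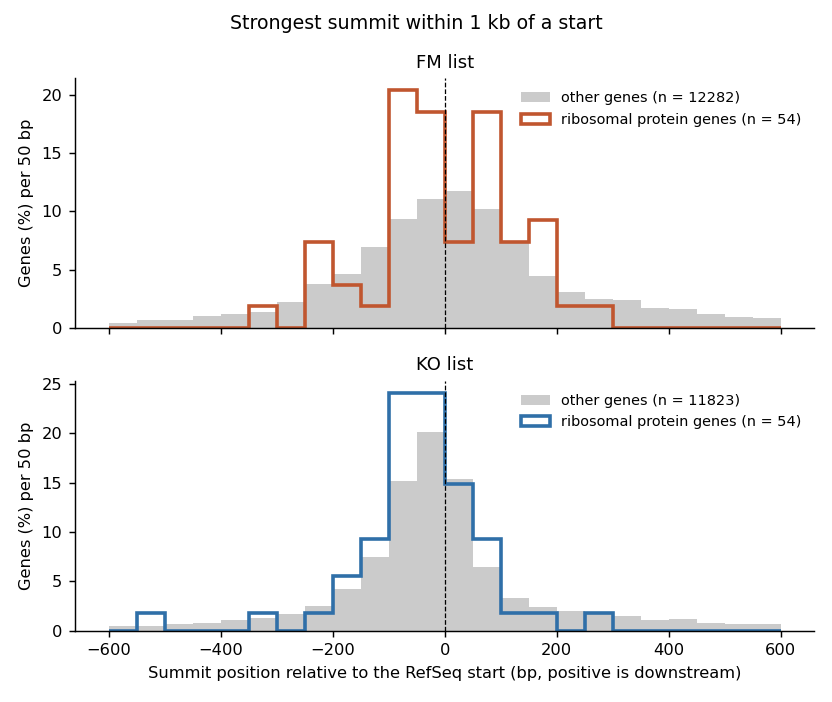
Distance from the annotated RefSeq start to the strongest summit within 1 kb (x axis, bp, positive downstream) as a share of genes per 50 bp (y axis), for ribosomal protein genes (coloured line, n = 54 in each list) and other genes with a start (grey), with the FM list above and the KO list below; distances beyond the axis are not drawn. Within 100 bp of the start lay 64.8% of the ribosomal protein gene summits in FM and 72.2% in KO.

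Summits of the ribosomal protein genes lay close to the annotated start. In the FM list 64.8% of 54 summits were within 100 bp, against 42.7% of all genes with a start peak, and 87.0% were within 200 bp, against 66.0%. In the KO list the shares were 72.2% against 57.4% and 90.7% against 74.7%. The median position was -3 bp in FM and -39.5 bp in KO, where negative is upstream, while over all genes it was 13 bp and -22 bp. Upstream summits made up 53.7% of the family in FM and 68.5% in KO, against 46.7% and 58.9%. For example, the summit of Rpl34 was at -2 bp and -50 bp, and that of Rps26 at -338 bp and -326 bp.

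The strongest summit moved little between the lists. The distance between the FM and the KO summit had a median of 40 bp over the 54 genes with a start peak in both, beside 49 bp over all such genes. The widths of the strongest gene-end peaks were also alike, with medians of 1013 bp and 1017 bp in the family and 1039 bp and 1051 bp over all genes.

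Fold and p-value of a peak together give the pileup at the summit and the local background the peak caller used. Their unit is called fragments throughout, though the sources used here do not say how reads were counted. The median summit held 224 fragments in FM and 310 in KO for the ribosomal protein genes, beside 186 and 231 over all genes with a peak. The median local background was 60.4 and 61.9, beside 49.1 and 51.8. The family was thus higher than genes at large in the number of fragments and also in the background that the fold divides by. By fragments the median percentile of the family was 61.9 in FM and 66.8 in KO, while by fold it was 50.7 and 57.7. The FM median by fold fell below the middle, to 41.9, when only peaks with −log10 q of at least 10 were kept. The KO median by fold was then 51.9.

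Within the family, fold and background ran in opposite directions, with a Spearman correlation of -0.50 over 73 genes in FM and -0.46 over 71 in KO. Fragments and background ran together, at 0.48 and 0.51. The background is part of the fold, and the genes share the library, so these are descriptions across genes. The most fragments of the family in the FM list, 477 over a background of 164 and a fold of 2.89, were counted for Rps18, at a summit beyond its far end and within 1 kb of an end of B3galt4. Near the start of Rps18 there were 339 fragments over 150.9. Rpl10a and Rpl36 had backgrounds of 121.5 and 128.5 in the FM list and folds of 2.23 and 2.28. Not every gene followed this order: Rpl10l, Rpl24 and Rpl37a had low FM backgrounds of 28.6, 30.5 and 34.0, and their folds of 2.74, 2.64 and 3.17 were below the family median.

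**Figure D3:**
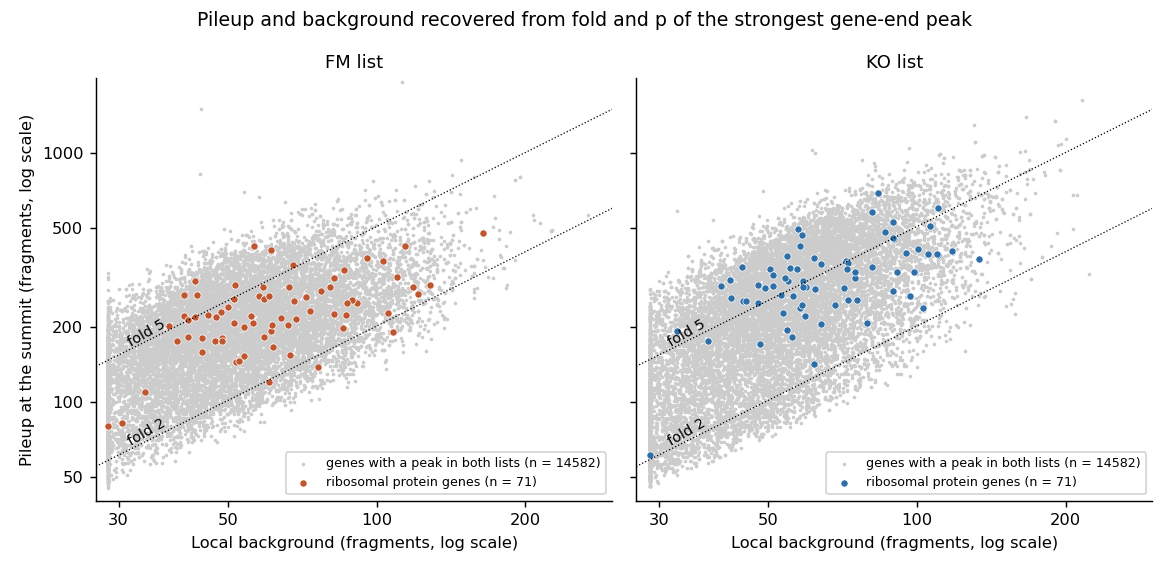
Fragments at the summit (y axis, log scale) against the local background in fragments (x axis, log scale) of the strongest gene-end peak, for 71 ribosomal protein genes (coloured) and all 14582 genes with a peak in both lists (grey), with the FM list left and the KO list right; dotted lines mark folds of 2 and 5 and a few genes beyond the axes are not drawn. The family has medians of 224 and 310 fragments over backgrounds of 60.4 and 61.9.

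Between the lists, the fold was numerically higher in the KO list for 67 of 71 ribosomal protein genes (94.4%), against 75.5% of the 14582 genes. The number of fragments at the summit was numerically higher in the KO list for 67 of 71 as well, against 71.5%. The lists are separate output of the peak caller with no common scale, and most genes lay higher in the KO list, so ranks within each list are given beside the folds. The percentile by fold was higher in the KO list for 53 of 71 genes (74.6%), against 49.7%, and that by fragments for 44 of 71 (62%), against 47.9%. At annotated starts the fold was higher in the KO list for 50 of 54 genes, against 77.7%, and the percentile for 40 of 54 (74.1%), against 49.4%. A start peak of fold 5 or more was found for 7 of 56 genes (12.5%) in FM and 24 (42.9%) in KO, against 17% and 30%.

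The difference in percentile, KO minus FM, had a median of 8.1 in the family with quartiles of -0.11 and 16.4, beside a median of -0.075 over all genes. By subunit, the percentile was higher in the KO list for 21 of 27 genes of the 40S, 29 of 39 of the 60S and 2 of 3 of the P stalk. The upward shift in rank was therefore spread over both subunits, and its median was small beside the spread of the family. The local background was also numerically higher in the KO list, for 51 of 71 genes, against 59.1% of all genes. The part of depth or background in these ranks was not tested.

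**Figure D4:**
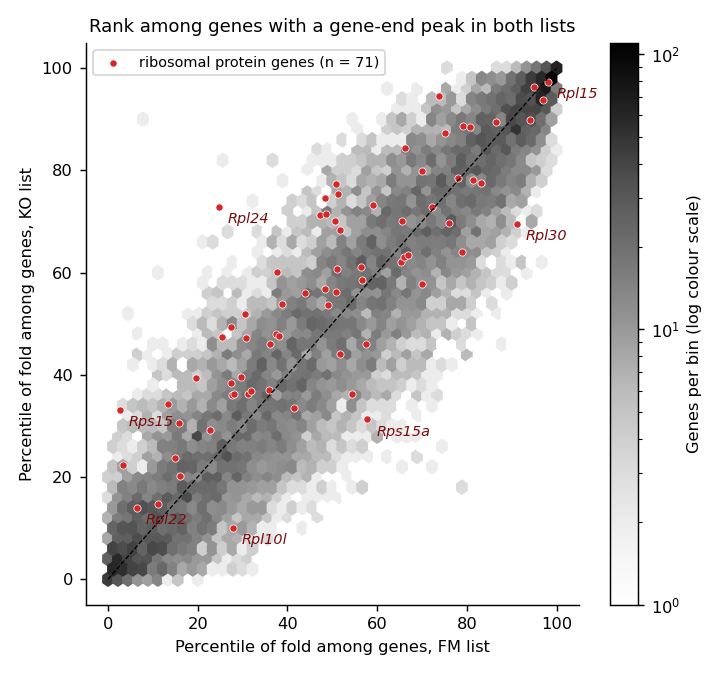
Percentile of the fold among 14582 genes with a gene-end peak in both lists, in the FM list (x axis) and the KO list (y axis), for all genes (grey bins, log colour scale) and 71 ribosomal protein genes (red), with equal ranks on the dashed line. Above the line lie 53 of the 71 genes, with Rpl24 farthest from it, and Rps15a and Rpl30 lie farthest below.

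Rpl24 changed rank most. This protein forms a bridge between the subunits, and a mutation of its gene causes the Belly spot and tail mouse. At its start on chr16 the fold was 2.64 in FM and 5.73 in KO, with 82 fragments over a background of 30.5 and 192 over 32.7, and its percentile went from 24.7 to 72.9. The background was thus nearly level and the number of fragments was not. Rps15 went from percentile 2.6 to 33.2, with 191 and 332 fragments. Rpl14 went from 50.8 to 77.4, with folds of 3.66 and 6.06, and Rps19 from 48.4 to 74.7, with 289 and 529 fragments.

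Only 4 of 71 genes had a numerically lower fold in the KO list, and they also lost most in percentile. Rps15a, a 40S protein, had folds of 3.97 in FM and 3.22 in KO and went from percentile 57.8 to 31.3. Rpl30 went from 91.1 to 69.5. Its fragments were 268 in FM and 357 in KO over backgrounds of 43.2 and 64.0, so the summit was numerically higher and the fold lower. Rpl12, which sits at the base of the stalk, had folds of 3.81 and 3.52 with 315 and 258 fragments, and Rpl10l was described above. For Rps15a, Rpl12 and Rpl10l both the fragments and the fold were lower in the KO list.

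Chromosomes 12, 15 and 18 had 80.7, 99.4 and 89.5 KO peaks for each 100 FM peaks, while the other autosomes had 56.8 to 73.5, and they hold 9 of the family. Besides Rpl10l and Rpl17, their values in the FM and the KO list were 5.17 and 7.11 for Rps29, 3.68 and 5.89 for Rps7, which also binds Mdm2, 4.30 and 5.05 for Rpl3, 6.09 and 5.51 for Rpl30, 6.60 and 8.24 for Rpl37, 1.80 and 2.73 for Rpl8 and 3.27 and 3.36 for Rps14. These 7 genes lay within the range of fold of the rest of the family. Their local background was higher in the KO list for each of the 7, as for 51 of 71 genes of the family. On chromosome 15 the median background of the 4 members was 63.8 in FM and 86.4 in KO, beside 60.4 and 61.9 in the family. The part of background in these folds was not tested. Chromosome 7 holds the most members, 14, with median folds of 3.35 and 4.46.

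Peaks found in one list alone were few and weak. The 76 genes had 115 gene-end peaks in the FM list, of which 18 (15.7%) overlapped no KO peak by 1 bp or more, against 22.4% of all 22431 gene-end peaks. In the KO list 2 of 96 (2.08%) overlapped no FM peak, against 9.35% of 18903. Counted by gene, 18 of 76 (23.7%) had such a peak in the FM list, against 22.2% of all genes, and 2 (2.63%) in the KO list, against 8.71%. The FM share by gene lay near the background. With the 50000 peaks of lowest p from each list, 4 genes had such a peak in FM and 6 in KO. The share over all genes under that setting is not given, so these counts are not a result about the family.

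The FM-specific peaks had folds of 1.35 to 1.94, and 12 of 18 lay at the end away from the start. The most significant, at Rpl18 (chr7:45720868-45721324), had fold 1.90 and −log10 q of 14.7 and was the only one past a −log10 q of 10. Next came Rpl28 at fold 1.94, Rps2 at 1.84, Rpl11 at 1.90, Rps25 at 1.79 and Rps28 at 1.49, with −log10 q of 5.49 to 8.87. The KO-specific peaks were at Rpl23 (fold 1.81) and Rpl38 (1.36), both away from the start. None of these was the strongest gene-end peak of its gene except those of Rps2 and Rps27l, whose start peaks are shared by both lists.

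Start peaks with and without some of these promoter letters had close medians. The fold had a median of 3.66 with and 3.66 without CCGGAAG in the FM list, and 4.80 and 4.84 in the KO list. With a pyrimidine run of 8 or more at the start the medians were 3.62 and 4.61, and without it 3.67 and 4.95. For the run the medians were thus further apart in the KO list than in the FM list. Genes with the CGCG element, which are Rps6, Rps19, Rps28, Rpl12 and Rpl26, had medians of 3.81 and 4.79, and genes without it 3.66 and 4.84. For CTTTTC the medians lay apart in opposite directions, 3.86 with and 3.57 without in the FM list and 4.63 and 4.95 in the KO list. For GGGCGG they were 3.66 and 3.58 in FM and 4.97 and 4.70 in KO. The widest gaps were found, in a single list each, for letters that few promoters hold. In the KO list the median was 4.13 in 4 genes with AAGATGGC and 4.89 without, and 5.6 in 2 genes with GCGCATGC and 4.82 without. The FM medians with and without were closer, 3.62 and 3.66 for AAGATGGC and 3.75 and 3.66 for GCGCATGC. For TATAAA the FM median was 3.23 in 3 genes with it and 3.66 without, while the KO medians were 4.80 and 4.84.

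Other genes of translation were counted in the same way. The symbol rule leaves out 7 other genes of this kind, among them Rpsa and Rps3a1 and the copies Rpl7l1, Rpl22l1 and Rpl36al. All 7 had gene-end peaks, with median folds of 3.40 in FM and 5.75 in KO. The percentile was higher in the KO list in 7 of 7. Among 31 translation elongation and initiation factors, 32.3% reached a fold of 5 in FM and 61.3% in KO, and the percentile was higher in the KO list for 21 of 31. Of 10 other genes whose transcripts begin with a pyrimidine tract, such as Tpt1, Npm1 and Pabpc1, 50% and 90% reached it, and the percentile was higher in the KO list for 5 of 10. The ribosomal protein genes thus had a lower share past 5 than both of these lists, in each peak list.

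Of 23 autosomal ribosome assembly factors, 8.7% reached a fold of 5 in FM and 52.2% in KO, with 14 of 22 higher in percentile in the KO list. Among 78 mitochondrial ribosomal proteins the shares were 26.9% and 44.9%, with 48 of 75 higher in percentile. Among 39 genes with proteasome subunit symbols, one of them the recombination factor Psmc3ip, they were 23.1% and 61.5%, with 20 of 38 higher in percentile. All 6 lists had a larger share past 5 in the KO list, as did all genes, and the cytoplasmic ribosomal protein genes had the largest share of genes higher in percentile apart from the 7 left out by the symbol rule.

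**Figure D5:**
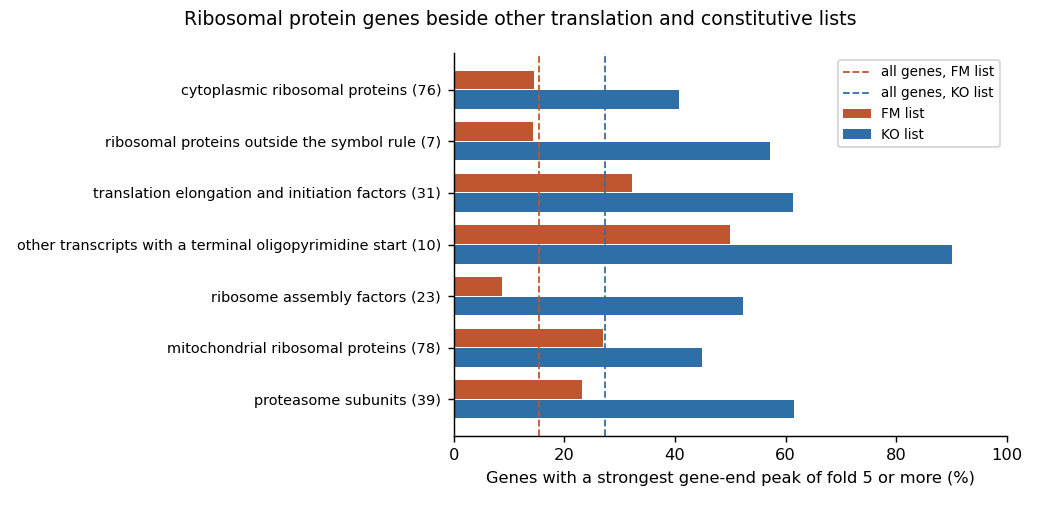
Share of genes (x axis, %) whose strongest gene-end peak has a fold of 5 or more, for the cytoplasmic ribosomal protein genes and 6 other lists (autosomal genes in brackets) in the FM list (orange) and the KO list (blue); dashed lines mark the shares over all protein-coding autosomal genes, 15.4% and 27.3%. The cytoplasmic ribosomal protein genes reach 14.5% and 40.8%.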

How the data were processed

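The 2 groups of 3 ATAC-seq libraries were analysed through the narrowPeak lists that the authors deposited, 1 for each group. MACS2, Bowtie2, SAMtools, bcl2fastq and mm10 are named in the submitters' processing notes. Not given in the sources used here are versions, the way libraries were combined, Tn5 shifting and read filters. The deposited fold is a ratio, the p-value was deposited by the authors as −log10, and the q-value was deposited as a −log10 score. How filters and pooling affect the folds cannot be seen from the lists.

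Gene intervals came from the RefSeq gene table of GRCm38.p6, and starts and promoters from its promoter table. Every summit of a peak was used, and the strongest by fold represents a gene. Peaks were shared when they overlapped by at least 1 bp. Summit pileup and local background, in units called fragments here, were solved from fold and p under the Poisson model of the peak caller. They fitted within 0.001 of −log10 p for 15589 of 15592 FM and 14962 of 14974 KO gene-end peaks. Percentiles rank 14582 genes with a gene-end peak in both lists. The code was tested on simulated data, and ran in Python 3.11.15 with pandas 2.3.3, numpy 2.4.6 and scipy 1.17.1.

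The members and gene lists were chosen with earlier results of these data known. Genes named are those with the 5 highest and 5 lowest folds in each list, those without a gene-end peak, the 6 list-specific peaks of lowest q in each list, the P stalk, the 4 largest rank changes each way, the variant copies, members on chromosomes 12, 15 and 18, and known special members. A few genes that this rule would name are not reported here. Rpl4, Rpl41, Rps18, Rpl9, Rpl10a, Rpl36, Rpl37a and Rps26 were named after their values were seen. Alternatives changed the window, the gene end, the q limit, the number of peaks, the overlap rule and the ranking value.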

Additional observations from a re-analysis of the deposited data

Results flagged for a closer look

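The ribosomal protein genes on X lie outside the autosomal rule and entered none of the comparisons above. They are given here because peaks were present in data that the report does not otherwise use. All 4 of them (Rpl10, Rpl36a, Rpl39 and Rps4x) had a gene-end peak in FM, and 4 of 4 had one in KO, while 43.9% and 42.5% of 966 protein-coding genes on X had one. Rpl39, a protein of the exit tunnel, had folds of 4.86 in FM and 4.70 in KO, with 145 fragments at the summit in both. Rpl10, needed for joining of the subunits, had 3.55 and 5.67, Rpl36a had 3.82 and 5.16, and Rps4x had 2.88 and 3.42. Their local backgrounds of 28.6 to 34.3 fragments lay near the lowest of the autosomal family. In the KO list the 28.8 of Rps4x and Rpl36a was also the lowest over all autosomal genes with a gene-end peak.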

How the results depend on the processing

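Over the alternatives tried, 81 of 93 values were classed as the same as the reported one. For counts this class allowed a change by a factor of up to 1.5. It also includes the fall of the median FM percentile to 41.9 given below, so it is a loose measure of agreement. The 18 genes with an FM peak outside every KO peak became 8 with a 0.5 kb window and 26 with a 2 kb window. They became 5 at the start end only and 4 with −log10 q of at least 10. With the 50000 peaks of lowest p from each list there were 4, and 31 when summits had to lie within 200 bp. The 2 such KO genes became 1, 0 and 6 under the 0.5 kb, start end and 50000-peak settings and 12 under the summit rule. They became 3 with the 2 kb window and 3 with −log10 q of at least 10. Shares over all genes under these settings are not given, so the changes cannot be read as particular to the family. The 11 FM genes past a fold of 5 became 7 at the start end only and 7 at annotated starts. Both settings use only the 56 genes in the promoter table. Of those 56, 7 also passed a fold of 5 in FM with both gene ends used. The median FM percentile of 50.7 became 61.9 by fragments. It fell below the middle to 41.9 with −log10 q of at least 10, 43.1 with 50000 peaks and 45.9 at the start end only. At annotated starts it was 46.1, and without chromosomes 12, 15 and 18 it was 49.0. Under these settings, in the same order, the median KO percentile of 57.7 became 66.8, then 51.9, 52.1, 54.0, 54.2 and 56.8. The settings with annotated starts, with fragments, with the summit of lowest p of each peak and without the variant copies were added after the data were seen. Depth in reads is unknown and sets which weak peaks were called. No paired analysis was possible because each group has 1 peak list, and for the same reason no replicate could be left out.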
